A study of Mus musculus with 8 samples.

Results

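The GIMAP genes (GTPase of the immunity-associated protein family) were followed in blood stem and progenitor cells that lack TRAF6. The 8 genes are Gimap1, Gimap3, Gimap4, Gimap5, Gimap6, Gimap7, Gimap8 and Gimap9, and they are all the genes among the 24112 of the tables whose symbol begins with Gimap. The family was selected on the values of Gimap6 and Gimap7 in the comparison of genotypes, since both were low in the cells without Traf6 in these same libraries. The contrast between genotypes is therefore described for these genes and not used as a test, and the question was whether the genes around Gimap6 and Gimap7 were low with them. Gimap6 and Gimap7 were below every WT library in all 4 KO libraries. Gimap4 was too, on few reads, and Gimap5 overlapped between genotypes. Gimap1, Gimap8 and Gimap9 ranged from 0 or nearly 0 in KO3 to the upper WT values or above in KO4. KO3 and KO4 shared no sequencing lane with WT. In the lane shared with WT, Gimap8 and Gimap9 were below every WT library in both KO libraries, as were 10.3% of all genes. The genes flanking the cluster were about evenly split between higher and lower.

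RNA was sequenced from LSK cells, the bone marrow cells without lineage markers that carry Sca1 and Kit, sorted from C57BL/6 mice after transplantation. The mice had been reconstituted with bone marrow that was Vav-Cre+ (wild type, WT, 4 libraries) or Traf6-/-;Vav-Cre+ (Traf6 knockout, KO, 4 libraries), so both groups carried the Cre recombinase under the Vav promoter, which is active in blood cells. Neither the age of the mice nor the way donor cells were told from remaining host cells is given in the sources used here. The labels leave unsaid whether each library had its own mouse, and a p-value here speaks only to the spread from library to library, which may be technical. Values are RPKM, the reads of a gene scaled to its length and to the reads of the library, so levels of different genes can be compared. In bulk RNA, fewer cells with a transcript and less transcript per cell cannot be told apart.

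GIMAP proteins are GTP-binding proteins with a septin-like GTPase domain that sit on intracellular membranes such as those of lysosomes, the endoplasmic reticulum and mitochondria. They are best known from lymphocytes, where several of them are needed for the survival of T and B cells, and loss of Gimap5 in mice also disturbs blood stem cells. In mammals the genes lie side by side in one cluster.

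In mouse the order along chromosome 6 is Gimap8, Gimap9, Gimap4, Gimap6, Gimap7, Gimap1, Gimap5 and Gimap3, so Gimap6 and Gimap7 are neighbours in the middle. Gimap6 and Gimap3 are read from the minus strand and the other 6 from the plus strand. Each promoter is shown from 250 bases before to 50 bases after the start of the gene, as listed by RefSeq on GRCm38.p6. The submitters' processing notes name the build mm9, and the tables hold no coordinates. All 8 genes matched a promoter and Gimap8 matched a pair, which gave 9 sequences. The promoters of Gimap6 and Gimap7 are printed as those of the tested members with the largest log2 falls from WT to KO. Those of Gimap1 and Gimap9 are printed as those of abundant members whose KO values overlapped WT. Capitals mark matches, on either strand, to the 6 motifs given after the sequences.

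Gimap6, chr6:48708195-48708494, minus strand: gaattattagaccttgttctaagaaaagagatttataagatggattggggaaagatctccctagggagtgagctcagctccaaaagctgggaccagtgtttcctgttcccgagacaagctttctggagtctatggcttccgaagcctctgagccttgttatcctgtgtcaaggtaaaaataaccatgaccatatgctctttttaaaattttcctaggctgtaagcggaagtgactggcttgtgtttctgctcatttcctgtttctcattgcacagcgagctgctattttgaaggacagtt
Gimap7, chr6:48718371-48718670, plus strand: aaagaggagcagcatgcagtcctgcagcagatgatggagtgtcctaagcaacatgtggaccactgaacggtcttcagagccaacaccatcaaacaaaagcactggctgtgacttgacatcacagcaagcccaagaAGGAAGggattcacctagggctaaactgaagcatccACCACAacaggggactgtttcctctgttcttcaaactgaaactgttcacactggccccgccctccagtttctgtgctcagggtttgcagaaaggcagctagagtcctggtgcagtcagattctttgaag
Gimap1, chr6:48738797-48739096, plus strand: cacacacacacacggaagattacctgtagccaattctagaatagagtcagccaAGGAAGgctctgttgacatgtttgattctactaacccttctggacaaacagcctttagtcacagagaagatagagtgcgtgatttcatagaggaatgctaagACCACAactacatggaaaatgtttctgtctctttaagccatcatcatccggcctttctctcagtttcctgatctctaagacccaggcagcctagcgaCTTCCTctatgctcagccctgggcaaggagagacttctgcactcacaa
Gimap9, chr6:48675885-48676184, plus strand: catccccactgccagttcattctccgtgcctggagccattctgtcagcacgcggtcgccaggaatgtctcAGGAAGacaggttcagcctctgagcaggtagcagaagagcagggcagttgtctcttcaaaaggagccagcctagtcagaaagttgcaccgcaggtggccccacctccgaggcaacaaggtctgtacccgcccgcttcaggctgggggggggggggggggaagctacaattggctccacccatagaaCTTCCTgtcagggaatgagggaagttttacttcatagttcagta

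The ETS motif AGGAAG was found in 7 of the 9 promoters, against 35.4% of 32851 promoters of the same length. It lay at -115 from the gene start in Gimap7, at -197 and 3 in Gimap1 and at -180 and 7 in Gimap9. The RUNX motif TGTGGT was found in Gimap1, Gimap4 and Gimap7 (3 of 9, against 16.8%), at -95, -145 and -79. The NF-κB motif GGANTTNCC, the AP-1 motif TGANTCA, the GATA motif AGATAA and the IRF motif GAAANNGAA had 0 matches in the 9 promoters, and 3.95%, 7.81%, 11.2% and 8.56% of all promoters held them. The Gimap6 promoter held none of the 6 motifs as spelled here. No motif of the 6, in these spellings, was thus common to Gimap6 and Gimap7. Other spellings of the motifs were not searched, so a lack of such sites in Gimap6 is not shown. The GC content was 43.3% in Gimap6 and 57.3% in Gimap9, the lowest and the highest of the 9, and the median of all promoters was 52.7%.

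The libraries differed in ways that bear on the family. Estimated depth was 19.3 to 30.7 M reads in genes. Traf6, the deleted gene, ranged from 3.52 to 14.9 RPKM in WT and from 0 to 0.818 RPKM in KO. Lane 5 held KO3 and KO4 and no WT library, so for these 2 libraries lane and genotype cannot be told apart, and lane 4 held the remaining 6. Among the 3943 genes averaging over 20 RPKM, 4.44% were at 0 in KO3, 1.55% in KO4 and 1.19% in WT2, and fewer in the remaining 5 libraries. A value of 0 is therefore given as listed at 0 and not as absence of a transcript.

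Gimap6 was the most abundant member in every WT library. It encodes a protein that binds the autophagy protein GABARAPL2 and forms complexes with GIMAP7. It stood at 94.9, 85.9, 103 and 70.0 RPKM in the WT libraries 1 to 4, against 11.2, 23.7, 27.8 and 12.8 RPKM in the KO libraries 1 to 4. All 4 KO values were below all 4 WT values, and they were 12.4% to 30.7% of the WT median of 90.4 RPKM. About 1026 to 2263 reads lay behind each KO value at the estimated depths, so the low level does not rest on a few reads. On the scale of log2(RPKM + 1), which understates differences of low genes, KO minus WT was -2.25 ± 0.30 (SE, n = 4 per group). KO3, which listed 6 of the 8 members at 0, had the highest Gimap6 of the KO libraries.

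Gimap7, the gene next to Gimap6, encodes a GTPase that pairs with other GIMAP proteins. It measured 12.5, 5.32, 13.0 and 7.62 RPKM in WT, against 0.257 and 1.49 RPKM in KO1 and KO2, and it was listed at 0 in KO3 and KO4. The groups did not overlap. KO1 and KO2 had about 10 and 57 reads, against about 130 to 333 in the WT libraries. KO1 and KO2 share lane 4 with all WT libraries and were below them, as were 10.3% of all genes in that lane. The log2 difference was -2.92 ± 0.52, and within lane 4 it was -2.51. Gimap7 passed the filter on low values through the WT libraries and KO2, so its difference was partly set by that filter.

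Gimap4, which in mouse T cells promotes cell death, was low everywhere and also showed no overlap. It was at 0.513, 1.37, 0.425 and 2.0 RPKM in WT, at 0.251 RPKM in KO2, and listed at 0 in KO1, KO3 and KO4. At the estimated depths, WT3 had about 15 reads and KO2 about 14, so the separation rests on few reads. Gimap4 stayed below the filter of 1 RPKM in 4 libraries.

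**Figure D1:**
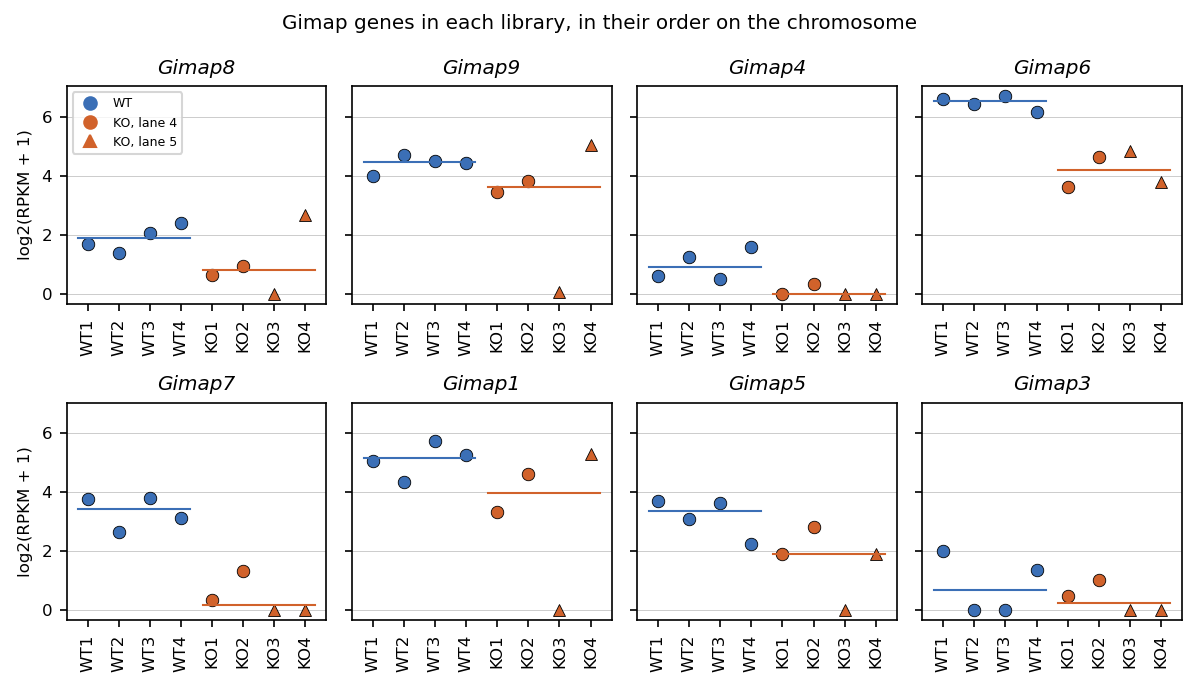
Level of each Gimap gene as log2(RPKM + 1) in the 4 WT libraries (blue) and the 4 KO libraries (orange), with triangles for the lane 5 libraries and lines at group medians. Gimap6 and Gimap7 show no overlap between genotypes, while Gimap1, Gimap9 and Gimap8 reach or pass the WT range in KO4 and lie at or near 0 in KO3.

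The next most abundant members did not separate the genotypes. Gimap1, which mature T and B cells need to survive, measured 32.4, 19.3, 52.7 and 36.8 RPKM in WT, against 9.10, 23.4, 0 and 38 RPKM in KO1 to KO4. KO2 and KO4 lay within the WT range, KO1 lay below it and KO3 was listed at 0. The log2 difference of -1.79 ± 1.0 became -0.69 without KO3, and it was -1.12 in the lane 4 libraries.

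Gimap9 measured 14.8, 24.8, 21.6 and 20.3 RPKM in WT, against 9.78, 13.2, 0.032 and 31.7 RPKM in KO. KO4 was above every WT library, KO1 and KO2 were below every WT library, and the value of KO3 corresponds to about 1 read. The log2 difference was -1.31 ± 0.89 with all libraries, -0.30 without KO3 and -0.77 in lane 4.

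Gimap5, the member with a known part in stem cell maintenance and in lymphocyte survival, was at 12.0, 7.51, 11.4 and 3.72 RPKM in WT. In KO it was at 2.73, 6.10, 0 and 2.72 RPKM. KO2 lay above WT4, so the groups overlapped, although the other 3 KO libraries were below every WT library. The log2 difference was -1.51 ± 0.66 and became -0.96 without KO3 and -0.80 in lane 4.

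Gimap8 measured 2.25, 1.61, 3.14 and 4.29 RPKM in WT, against 0.555, 0.918, 0 and 5.40 RPKM in KO. KO4 again exceeded every WT library, and the other 3 KO libraries were below every one. Its log2 difference was -0.82 ± 0.62, -0.47 without KO3 and -1.10 in lane 4. It passed the filter through the WT libraries and KO4.

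Gimap3, which in mice influences the segregation of mitochondrial DNA, was at 3.01 and 1.59 RPKM in WT1 and WT4, at 0.395 and 1.05 RPKM in KO1 and KO2, and listed at 0 in the other 4 libraries. The groups overlapped, and the gene stayed below the filter.

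Of the 8 members, 3 (Gimap4, Gimap6 and Gimap7) had all KO values below all WT values. Among the 15390 genes above 0 in any library, 3.1% did so, and because Gimap6 and Gimap7 were picked for this contrast nothing is read from the count. Without KO3 the count was the same 3 genes (5.15% of all genes). In the lane 4 libraries alone it was 5, with Gimap8 and Gimap9 added (10.3%). It was 6 when WT2, KO3 and KO4 were all left out, with Gimap1 added as well (15.9%). Taken 1 library at a time, KO1 lay below every WT library in 7 members, KO2 in 5, KO3 in 7 and KO4 in 4, and the shares of the 15390 genes that did so were 20.6%, 13.2%, 30.8% and 22.4%. KO4 lay above every WT library in 2 members and in 21.4% of these genes.

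Of the 6 members that passed the filter, all 6 had negative log2 differences, as had 61% of the 11276 genes tested. Their median was -1.65, and it was -0.82 without KO3; the median of all genes tested was -0.14. In limma 0 of the 11276 genes (0%) passed an adjusted p of 0.05, whereas 7.51% had an unadjusted p under 0.05 and 4.74% had one while lower in KO. This fit to all 8 libraries thus gave no call for any member, nor for the deleted gene Traf6 (limma adjusted p = 0.341). The lack of a call does not show that a gene was alike in both genotypes. Other settings called Gimap6 or Gimap7.

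**Figure D2:**
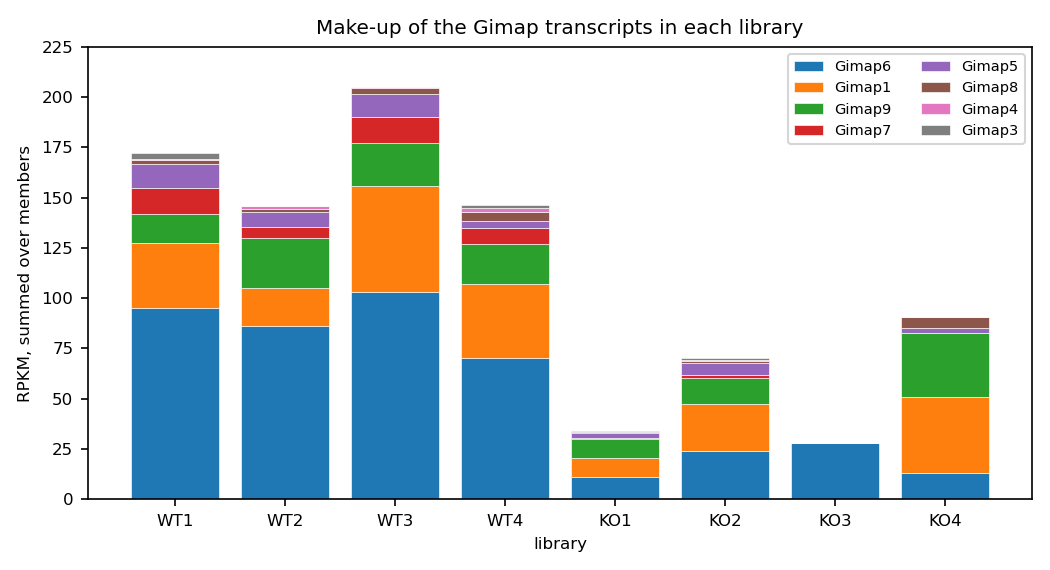
Stacked bars give the RPKM of each Gimap gene in each library, summed over the family, from 0. WT libraries reach 146 to 205 RPKM and KO libraries 27.8 to 90.5 RPKM, with Gimap6 the largest block in WT and in KO3 but not in KO4.

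The make-up of the family differed as well as its total. The summed level was 172, 146, 205 and 146 RPKM in WT and 34.1, 70.1, 27.8 and 90.5 RPKM in KO. Gimap6 held 47.8% to 58.9% of the sum in WT, 33.0% and 33.7% in KO1 and KO2, 99.9% in KO3 and 14.1% in KO4. Leaving Gimap6 out, KO4 was at 77.7 RPKM, within the WT range of 60.0 to 102 RPKM, and KO1 and KO2 were at 22.8 and 46.5 RPKM. The ratio of Gimap6 to Gimap1 was 1.90 to 4.45 in WT, 1.24 and 1.01 in KO1 and KO2 and 0.336 in KO4. In KO3 Gimap1 was listed at 0 beside 27.8 RPKM of Gimap6, so no ratio could be formed and the balance there was the opposite. Gimap6 was selected for its low values in KO, so these ratios are a description.

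In WT the order of the median levels was Gimap6 (90.4 RPKM), Gimap1 (34.6), Gimap9 (21.0), Gimap7 (10), Gimap5 (9.43), Gimap8 (2.70), Gimap4 (0.939) and Gimap3 (0.795). Gimap6 lay above Gimap1, and Gimap9 above Gimap7, in all 4 WT libraries with no overlap of their ranges. The ranges of all other neighbours in this order overlapped. Within libraries, Gimap8 still lay above Gimap4 in all 4 WT libraries, and each remaining pair kept its order in 3 of the 4. The order of Gimap1 and Gimap9, or of Gimap7 and Gimap5, is thus not settled. In KO the order of Gimap7 and Gimap5 was the opposite in 3 libraries and tied at 0 in KO3.

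The genes on both sides of the cluster were outside the choice of the family. Of the 10 protein-coding genes before it and the 10 after it, 8 and 3 passed the filter. Limma called 0 of these 11, as it called 0 of all 11276 genes tested, so nothing is read from that count. Their median log2 difference was 0.01, with 5 negative and 6 positive, and 0.08 without KO3. The 4 tested members other than Gimap6 and Gimap7 had a median of -1.41, which was -0.58 without KO3 and -0.95 in the lane 4 libraries. The difference between members and neighbours was not tested. Tmem176b and Tmem176a, membrane protein genes that come next after Gimap3 among the protein-coding genes, averaged 89.1 ± 17.5 and 65.6 ± 24.3 RPKM over the WT libraries, against 83.5 ± 21.1 and 70.3 ± 26.1 RPKM over the KO libraries (SD, n = 4). Their log2 differences were -0.12 ± 0.24 and 0.07 ± 0.35 (limma adjusted p = 0.907 and 0.963). The sign of both depended on the libraries used.

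On the other side, Zfp775, a zinc finger gene, was at 0.774 to 5.24 RPKM in WT and 1.19 to 12.1 RPKM in KO. Repin1, which encodes a zinc finger protein that binds replication origins, had a log2 difference of -1.02 ± 0.59 (limma adjusted p = 0.696). Gm5111 had -1.81 ± 1.02, with WT2, KO3 and KO4 listed at 0. Zfp746 was the one tested neighbour with all KO values below all WT values (3.88% of genes tested), at 10.5 to 12.3 RPKM in WT and 6.93, 7.54, 0.0121 and 10.2 RPKM in KO. Its log2 difference of -1.24 ± 0.70 became -0.45 without KO3. Krba1, Zfp467, Lrrc61, Rarres2 and Malsu1 had differences of -0.21 to 1.05.

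**Figure D3:**
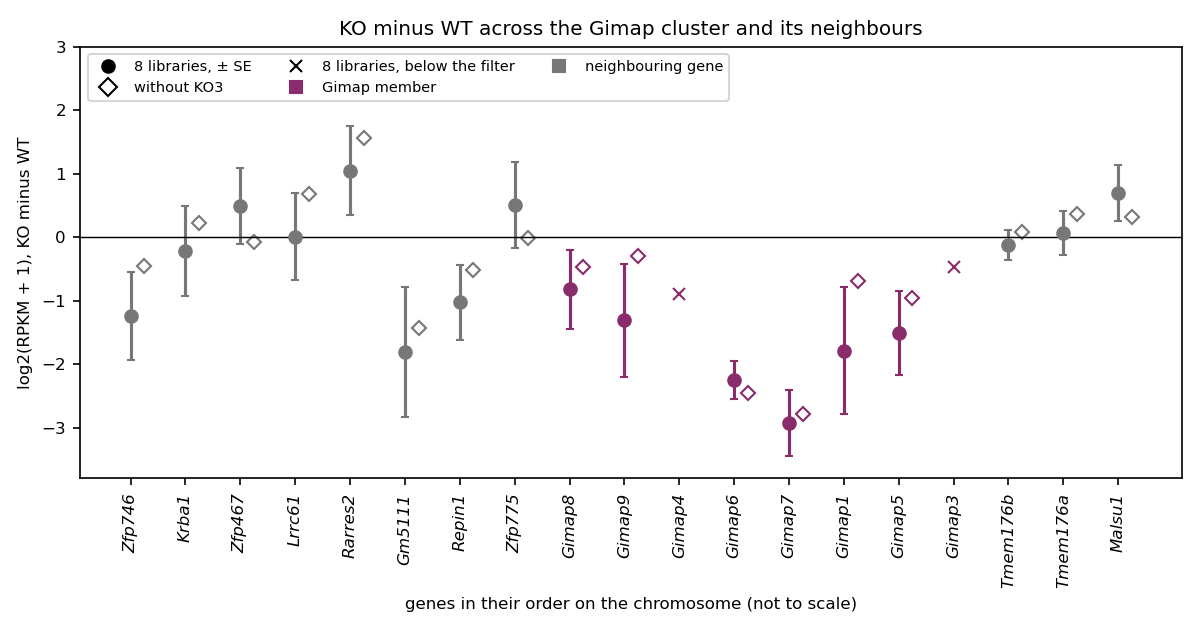
Log2(RPKM + 1), KO minus WT, for the Gimap members (purple) and the tested neighbouring genes (grey) in chromosomal order, with SE bars, open diamonds for the fit without KO3 and crosses for members below the filter. Gimap6 and Gimap7 lie at -2.46 and -2.78 without KO3, while Gimap1 and Gimap9 move to -0.69 and -0.30.

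Variation among libraries of one genotype was not used in choosing the family. Each value of log2(RPKM + 1) was taken as its deviation from the mean of its genotype, and the 6 tested members gave 15 pairs. Pearson's r ranged from -0.64 to 0.94 with a median of 0.36, and 10 pairs were positive. These values are a description over 8 libraries that share depth and the zeros of KO3. Gimap9 and Gimap1, both abundant, had the highest r of 0.94, which was 0.60 without KO3 and -0.27 among the 4 WT libraries. Gimap6 had r = -0.64 with Gimap9 and -0.49 with Gimap1 over 8 libraries, and -0.13 and 0.31 without KO3. Gimap6 with Gimap5 went from -0.13 over all libraries to 0.86 without KO3, and Gimap6 with Gimap7 from 0.36 to 0.79. The members diverged most in KO3, where Gimap6 was 0.63 above its KO mean and Gimap1 and Gimap9 were 3.31 and 3.04 below theirs.

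**Figure D4:**
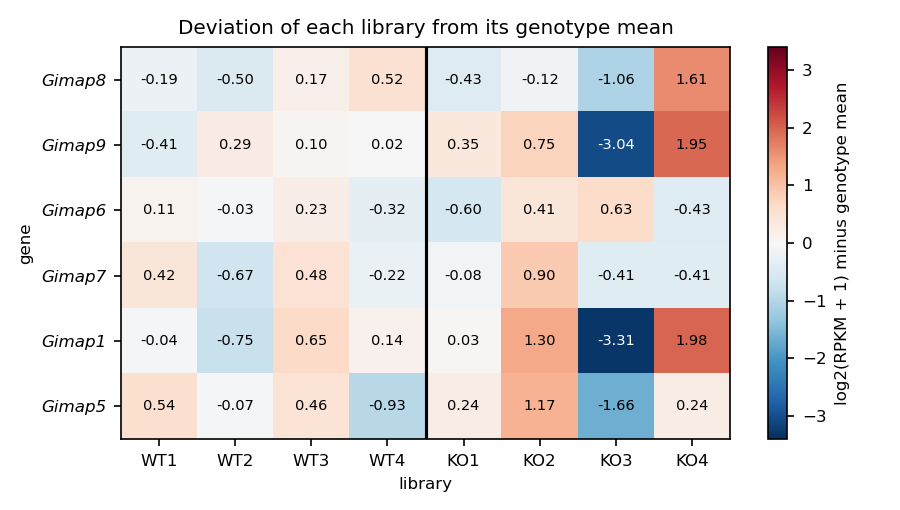
Each cell gives the deviation of log2(RPKM + 1) from the mean of its genotype for the 6 tested members (rows) in each library (columns), with WT left and KO right of the line. The widest values are in KO3 and KO4, where Gimap1 and Gimap9 lie at -3.31 and -3.04 in KO3 and at 1.98 and 1.95 in KO4, while Gimap6 stays within 0.63 of its mean.

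Reads of a gene family can be shared between copies. Of all stretches of 50 bases in the longest GENCODE transcript of each member, 0.192% of those of Gimap6 and 2.62% of those of Gimap7 occurred in another gene, and 0% of those of Gimap4, Gimap8 and Gimap9. The share was 9.83% in Gimap3, 14.0% in Gimap1 and 15.1% in Gimap5. Gimap3 and Gimap5 had 190 such stretches in common, and Gimap1, the antisense gene Gimap1os and the gene model Gm28053 also overlapped. The levels of Gimap3, Gimap5 and Gimap1 are thus less certain than those of Gimap6 and Gimap7. Whether the counting used strand is not given in the sources used here, so reads of Gimap1 and Gimap1os cannot be told apart.

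The genes whose profile was most like that of the family were found by Pearson's r with the mean log2(RPKM + 1) of the 6 tested members, over 8 libraries and 11270 other genes. Among the 6 highest were H2-Eb1 (r = 0.983), which encodes a chain of an MHC class II molecule, the stem cell transcription factor gene Mecom (0.978), Thsd1 (0.973), the lymphocyte adaptor gene Lax1 (0.973) and the ganglioside synthase gene St3gal5 (0.970). Each of these was listed at 0 in KO3 and each had all KO values below all WT values (3.88% of genes tested). The family mean includes Gimap6 and Gimap7, picked for low KO values, and is lowest in KO3 (0.82). The ranking thus favours genes with both traits, and nothing is read from them. When genotype means were removed, the 6 highest were Zfp65, Trrap, Fcgrt, Hectd4, Kctd7 and Ttll5 (r = 0.979 to 0.991). All 6 overlapped between genotypes, with log2 differences of -0.86 to -0.32, and KO3 was the lowest library for each. Without KO3, a setting added after the values were seen, the 6 highest were Hmga2 (0.985), Gm10052, Hnrnpa1, Hdgfl3, Gm5643 and Heatr5a. None of these 6 was among the 6 found over all libraries. Gm10052, Hnrnpa1 and Gm5643 rose and fell together across the libraries and may share reads, which was not checked, so they may not be separate profiles.

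For Gimap6 alone, also added after the values were seen, the 6 nearest were Zfp831 (0.990), E4f1 (0.980), Dynlt1a (0.968), Tapt1 (0.968), Kif20b (0.952) and Fam214a (0.943). Zfp831 was at 2.91 to 4.03 RPKM in WT and at 0.728, 1.71, 1.78 and 0.958 RPKM in KO1 to KO4, with KO2 and KO3 above KO1 and KO4 as for Gimap6. Since Gimap6 was picked for its separation of genotypes, genes like it separate them too.

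Gimap genes are typical of T cells, so the markers of other cell types were read in the same libraries. Of 19 T cell markers 5 passed the filter, with 4 negative and 1 positive log2 differences (median -0.4). Limma called 0 of them, as of all genes tested. Cd3g was listed at 0 in all 8 libraries, Cd2 and Cd3e were at 0 in 7 of 8, and Cd3d was at 0.0781 to 3.42 RPKM in WT and at most 0.441 RPKM in KO. The summed level of the 19 markers was 61.6 to 94.8 RPKM in WT and 33.6 to 66.0 RPKM in KO, and most of it came from Lck, Lat and Thy1. Lck, a SRC-family kinase, measured 35.2, 19.1, 33.8 and 20.7 RPKM in WT, against 7.74, 22.6, 3.82 and 3.04 RPKM in KO. Its log2 difference was -1.77 ± 0.53 (limma adjusted p = 0.515), and KO2 lay within the WT range. Lat, a T cell receptor adaptor, had -0.57 ± 0.27 (limma adjusted p = 0.665). Thy1, a surface protein gene, was at 7.17 to 16.9 RPKM in WT and 1.28 to 32.3 in KO, and Trat1, another T cell receptor adaptor gene, was listed at 0 in all WT libraries and at 16.2 RPKM in KO4. Some T cell markers were thus near 0. Others were higher, among them Lck, Lat, Thy1 and, in KO4, Trat1. The part of T cells in the Gimap levels was not tested.

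Of 10 natural killer and innate lymphoid markers 3 passed the filter (summed level 404 to 461 RPKM in WT and 385 to 728 in KO). Nearly all of it was Nkg7, a granule protein gene, at 423 ± 25.2 RPKM in WT and 496 ± 155 in KO (SD, n = 4; pairs of means here and further on are WT, then KO), while Klrb1c was at 3.12 ± 2.42 and 3.18 ± 3.67 RPKM and Klrd1 was at 0 throughout. Of 10 B cell markers only Cd79b passed, at 9.50 ± 5.42 and 13.1 ± 4.32 RPKM, with Cd79a at 0 in all libraries (summed level 6.39 to 22.5 and 6.78 to 18.4 RPKM). The endothelial list, whose genes stem cells share in large part, was at 117 to 184 RPKM in WT and 93.5 to 136 RPKM in KO, with Cldn5 at 0 in all libraries and Cdh5 in 7 of 8. Its most abundant members were Tie1 (37.9 ± 12.5 and 24.6 ± 8.25 RPKM) and Egfl7 (32.5 ± 9.28 and 28.9 ± 3.94 RPKM). Mature myeloid markers summed to 131 to 181 and 156 to 198 RPKM, mostly Lyz2 at 152 ± 23.2 and 148 ± 23.5 RPKM. Of the 4 tested, 2 had negative log2 differences (Cd14 at -0.17 ± 0.91 and Lyz2 at -0.04 ± 0.19) and 2 had positive ones. The median of 0.92 lies between these pairs. Itgam, which encodes the integrin CD11b, had all KO values above all WT values (2.05% of genes tested). It was at 0.707 to 2.76 RPKM in WT and 5.92 to 22.8 RPKM in KO, a log2 difference of 1.87 ± 0.56 (limma adjusted p = 0.515). S100a9 had 1.95 ± 1.09 and was listed at 0 in 4 libraries. Erythroid markers summed to 48.3 to 142 and 45.0 to 64.1 RPKM, led by the globin genes Hbb-b1 and Hba-a1. The part of any of these cells in the Gimap levels was not tested.

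The 6 genes of the sorting gate and its subdivisions were measured in both genotypes, 5 of them above 0 in every library. All 6 had negative differences (median -0.36), and limma called 0, as of all genes tested. Flt3, the receptor that marks lymphoid-primed progenitors, had all KO values below all WT values (3.88% of genes tested). It was at 59.3 to 89.2 RPKM in WT and 31.4 to 54.0 RPKM in KO, a log2 difference of -0.80 ± 0.23 (limma adjusted p = 0.507). Slamf1, which encodes the stem cell marker CD150, was at 8.38, 0, 8.19 and 3.94 RPKM in WT and 1.19, 3.3, 0 and 0 RPKM in KO (-1.38 ± 0.81). Cd34 averaged 259 ± 26.1 RPKM for WT against 232 ± 44.4 for KO (SD, n = 4), Cd48 was at 134 ± 40.9 and 101 ± 50.7, and Kit, the stem cell factor receptor of the sorting gate, was at 50.6 to 113 RPKM over all 8 libraries. Ly6a, which encodes Sca1, was at 6.53 to 11.8 RPKM.

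Lists of progenitor classes, chosen with earlier results of these libraries known, also had one-sided differences. Of 15 tested long-term stem cell genes 14 were negative (median log2 difference -1.09), and of 11 tested lymphoid-primed genes 10 were negative (median -0.80). All KO values were below all WT values in 3 of the former and 5 of the latter (3.88% of genes tested). In 1 lymphoid-primed gene all KO values were above all WT values (2.05%). All 11 granulocyte-monocyte progenitor genes were positive (median 1.43), and 5 of them had all KO values above all WT values (2.05% of genes tested). Limma called 0 genes in each list, as over all genes tested. The thioredoxin-interacting gene Txnip averaged 141 ± 67.3 RPKM for WT against 54.1 ± 19.6 for KO, and Gata2, a stem cell transcription factor, was at 46.2 ± 2.77 and 43.9 ± 7.66. Dntt, the lymphoid DNA polymerase gene, was at 172 ± 34.8 and 109 ± 43.6 RPKM. Among myeloid genes, Mpo was at 757 ± 292 and 2180 ± 1060 RPKM and Prtn3 at 311 ± 113 and 1020 ± 851. The median Gimap difference was -1.65, or -0.82 without KO3, but it includes Gimap6 and Gimap7, picked for low KO values. The 4 other tested members had a median of -1.41, or -0.58 without KO3. The part of the progenitor mix in the Gimap levels was not tested.

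Lymphoid transcription factor genes gave 10 negative of 11 tested with a median of -0.22, close to the -0.14 of all genes. Ikzf1, which encodes Ikaros, was at 40.0 ± 2.48 and 35.0 ± 5.11 RPKM, and Tcf3, which encodes E2A, at 32.8 ± 3.22 and 31.8 ± 16.3. Genes of known GIMAP partners, of the ATG8 autophagy proteins and of the BCL2 family were 11 negative and 7 positive of 18, with a median of -0.02. Gabarapl2, which encodes the partner of GIMAP6, measured 36.6, 46.9, 19.3 and 37.2 RPKM in WT, against 24.6, 28.6, 63.8 and 19.6 RPKM in KO, a log2 difference of -0.12 ± 0.39. Gabarap and Ctnnb1, the most abundant of the list, had differences of -0.05 ± 0.30 and -0.01 ± 0.21, and Bcl2 had -0.03 ± 0.25. These genes overlapped between the genotypes, as did all 18 of the list.

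The interferon-inducible GTPases are another large family of immune GTPases. Of 16 tested members 13 were negative, as were 61% of all genes tested, and the median was -0.22. Gbp2b, Gbp6 and Gbp10 had all KO values below all WT values (3.88% of genes tested), while Gbp3 had all above (2.05%). Gbp6 and Gbp10 were low genes, at 1.98 to 3.14 and 1.11 to 2.74 RPKM in WT, and were listed at 0 in 2 and 3 KO libraries. The most abundant, Ifi47 and Irgm1, averaged 53.8 ± 10.4 and 38.1 ± 5.06 RPKM over the WT libraries, against 50.6 ± 10.5 and 37.7 ± 9.05 RPKM over the KO libraries. Gbp2b, a guanylate-binding protein gene, was at 6.39 to 16.3 RPKM in WT, 0.859 RPKM in KO2 and 0 in the other KO libraries, a log2 difference of -3.32 ± 0.48 (limma adjusted p = 0.238). Near-identical copies such as Tgtp1 and Tgtp2 may share reads.

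**Figure D5:**
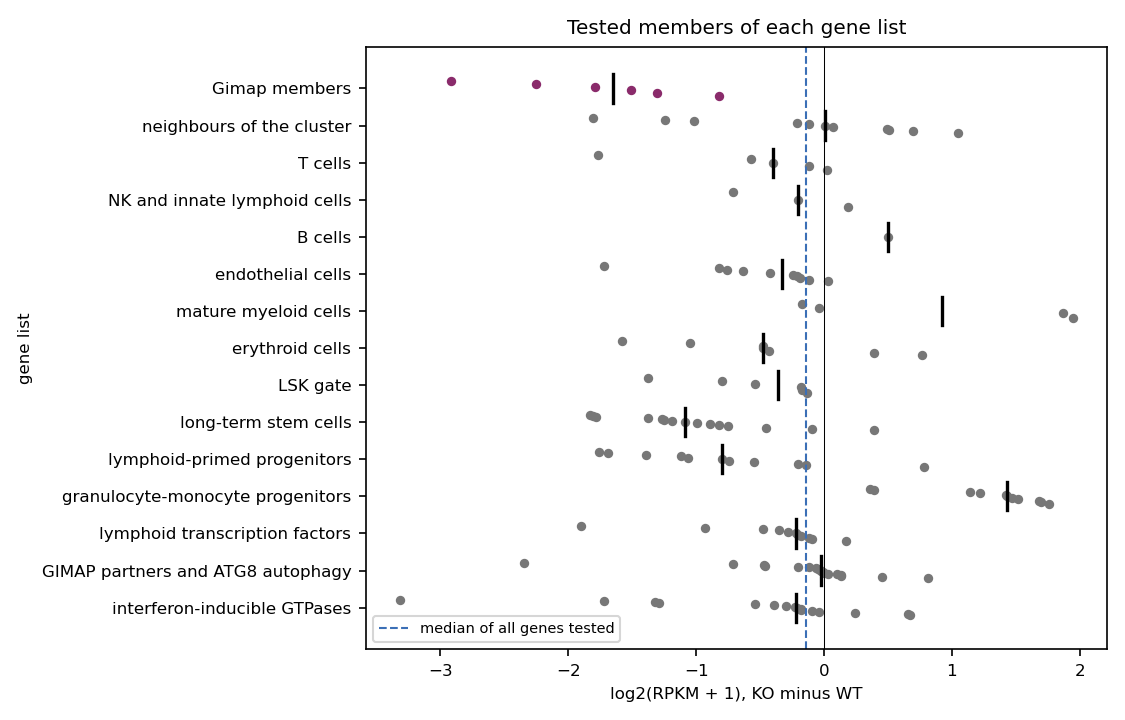
Points are the log2(RPKM + 1) differences, KO minus WT, of the tested genes of each list, black bars are list medians and the dashed line is the median of all genes tested (-0.14). The 6 tested Gimap members, among them Gimap6 and Gimap7 picked for low KO values, have a median of -1.65 (-1.41 for the other 4). The neighbouring genes have a median of 0.01 and granulocyte-monocyte progenitor genes one of 1.43.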

How the data were processed

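Poly(A) RNA of LSK cells was sequenced in 8 libraries, 4 WT and 4 KO, grouped by title. The deposited values are RPKM made by the authors, 1 per Entrez gene and library; the unit was inferred from the values. TopHat, edgeR and mm9 are named per the submitters' processing notes, without role or version. The counter, annotation and any filter used are not given here in the labels. Of 24112 gene IDs, 24029 (99.7%) matched a symbol in a RefSeq table of GRCm38.p6, used for names, gene order and promoters.

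Depth was estimated from the steps between values up to 0.2 RPKM in genes with a lone protein-coding transcript, and 50.0% to 59.6% of these were whole reads within 0.03 reads. Whole reads were not recovered, so no count test was run, and read numbers in the text are approximate. The 11276 genes that reached 1 RPKM in 4 or more libraries were fitted as log2(RPKM + 1) with limma 3.58.1 in R 4.3.3 (genotype, trend and robust variance, Benjamini-Hochberg over all genes). The fit was tested on simulated data with 200 changed genes.

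Genes were named by a rule: Traf6, the Gimap genes, tested neighbours, the 2 most abundant tested genes of each list and the 6 genes nearest in profile. Others (Cd3d, Cd3e, Cd3g, Cd2, Klrd1, Cd79a, Cldn5, Cdh5, Kit, Ly6a, Flt3, Slamf1, Itgam, Cd14, Trat1, Thy1, Gabarapl2, Bcl2 and the Gbp and Tgtp genes) were chosen after their values were seen. Some genes that the rule takes are not reported here. Members, lists and tests were chosen with earlier results of these data known. Alternatives were the filter, pseudocount, lane, replicate block, library weights, scaling, variance model and leaving out libraries. Protein sequences were not used here.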

Additional observations from a re-analysis of the deposited data

Results flagged for a closer look

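In 40 groups of 4 libraries (the 8 Gimap genes, the 11 tested neighbours and Traf6, in each genotype), the gap of 1 library to the nearest other was compared with the whole range of the group on the log2(RPKM + 1) scale. Chance sets a library apart in about 1 group in 20, and 4 of the 40 had one. Gimap4 in KO2, at 0.251 RPKM, stood above KO1, KO3 and KO4, all listed at 0. Zfp746 in KO3, at 0.0121 RPKM, stood below the other KO libraries at 6.93 to 10.2 RPKM. Krba1 in WT2, at 8.57 RPKM, stood above the other WT libraries at 0.670 to 1.18 RPKM. Rarres2 in WT4, at 2.83 RPKM, stood above the other WT libraries, all listed at 0. Where all other libraries of a group are at 0, as for Gimap4 and Rarres2, any value above 0 is set apart. The rate of 1 in 20 does not hold for such groups.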

How the results depend on the processing

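The negative sign of all 6 tested Gimap members held in every alternative in which they were fitted (18 for Gimap8, which a mean above 5 RPKM leaves out, and 19 for the others). The ranges were -2.46 to -2.05 for Gimap6, -5.05 to -2.41 for Gimap7, -2.64 to -0.69 for Gimap1, -2.42 to -0.58 for Gimap5, -2.06 to -0.30 for Gimap9 and -1.82 to -0.32 for Gimap8. Gimap6 was among the genes that limma called without KO3 (-2.46) and with library weights (-2.06), and Gimap7 with library weights (-2.41); both were selected on this contrast, and nothing is read from these calls. The median of the tested members lay between -2.06 and -0.82 when each library was left out in turn, -0.82 being without KO3. The count of members without overlap was 5 in lane 4 alone and 6 without WT2, KO3 and KO4; both settings have fewer KO libraries. The number of genes called over the whole table was 164 with library weights, 2 in lane 4 alone, 3 without WT2, KO3 and KO4, 0 to 2 when 1 library was left out, and 0 in the other alternatives. The replicate numbers are not stated to pair libraries: same-numbered libraries had correlations of -0.080 to -0.038, and the replicate block called 0 genes, as did the fit without it, and kept the member median at -1.65.

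Among neighbours that were not called, signs turned as follows, and the cause was not tested. Krba1 was at 0.25 with library weights, 0.11 with quantile normalization, 0.46 without WT2, KO3 and KO4, and -0.59 to 0.37 when 1 library was left out, above 0 without KO3 or WT2. Zfp467 was at -0.24 in lane 4 alone and with lane as a covariate, -0.15 without WT2, KO3 and KO4, and -0.07 to 0.84 when 1 library was left out, below 0 without KO3. Lrrc61 was at -0.02 when centred on abundant genes, -0.24 with a pseudocount of 0.1, and -0.33 to 0.69 when 1 library was left out, below 0 in 5 of 8 turns. Zfp775 was at -0.01 to 0.86 when 1 library was left out, below 0 without KO3. Tmem176b was at 0.04 in lane 4 alone and with lane as a covariate, 0.19 with library weights, 0.16 without WT2, KO3 and KO4, and -0.21 to 0.08 when 1 library was left out, above 0 without WT2 or KO3. Tmem176a was at -0.09 to 0.37 when 1 library was left out, below 0 without WT1, KO1 or KO2. Malsu1 was at -0.11 in lane 4 alone and with lane as a covariate and at -0.10 without WT2, KO3 and KO4. Depth is an estimate, and levels under about 1 RPKM, as for Gimap3 and Gimap4, rest on few reads.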
